A study of Homo sapiens with 10 samples.

Results

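The transcripts described here are those of 10 enzymes of glycolysis, HK1, HK2, GPI, PFKP, ALDOA, GAPDH, PGK1, ENO1, PKM and LDHA. They were taken by name from a table of 61533 genes, and all 10 passed the filter on low counts that left 16181 genes for testing. RNA-seq had been made from T24, a cell line established from a human bladder cancer, and from T24R2, a line derived from T24 by stepwise exposure to cisplatin, with 5 libraries of each. Both lines were harvested at day 3 in RPMI with serum and antibiotics according to the labels. The methods of the study state that T24R2 was kept in medium with cisplatin, and whether the drug was present in the cultures used for RNA is not given in the sources used here, so resistance and drug exposure cannot be told apart. Each line is a single line, and separate cultures are not stated for its 5 libraries, so the p-values measure the spread between these libraries only.

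Glycolysis splits glucose into pyruvate in the cytosol. Hexokinases trap glucose as glucose 6-phosphate, phosphofructokinase commits the sugar to breakdown, aldolase cuts it into triose phosphates, and the lower enzymes, from GAPDH to pyruvate kinase, harvest ATP and NADH. Lactate dehydrogenase then turns pyruvate into lactate and gives back the NAD+ that GAPDH needs, and proton-coupled carriers export the lactate. Tumour cells, including those of bladder cancers, often run this route at high rate even with oxygen present, and many of its genes are targets of the hypoxia-inducible factor HIF-1, which binds DNA at short elements built on the letters ACGTG.

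The 250 bases before the transcription start of LDHA, PGK1 and PKM are printed because LDHA was the member that differed most between the lines, PGK1 lay near the middle of the members, and PKM differed in the other direction. The sequences are those of RefSeq on GRCh38.p14, the assembly that the files call hg38, at chr11:18394313-18394562 (plus strand), chrX:78103998-78104247 (plus strand) and chr15:72231191-72231440 (minus strand), written 5′ to 3′. Capitals mark ACGTG on either strand (CACGT where it lies on the other strand), and the longer palindrome CACGTG holds a match on each strand.

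LDHA: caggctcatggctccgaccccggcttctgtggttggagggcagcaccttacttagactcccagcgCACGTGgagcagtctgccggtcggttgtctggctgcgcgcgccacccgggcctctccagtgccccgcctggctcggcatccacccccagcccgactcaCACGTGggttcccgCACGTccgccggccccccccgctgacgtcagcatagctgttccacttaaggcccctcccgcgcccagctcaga
PGK1: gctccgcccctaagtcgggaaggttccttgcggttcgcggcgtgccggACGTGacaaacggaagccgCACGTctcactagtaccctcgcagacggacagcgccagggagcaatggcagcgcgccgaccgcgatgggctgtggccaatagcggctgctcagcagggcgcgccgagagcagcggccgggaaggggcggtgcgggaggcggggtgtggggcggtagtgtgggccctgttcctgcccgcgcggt
PKM: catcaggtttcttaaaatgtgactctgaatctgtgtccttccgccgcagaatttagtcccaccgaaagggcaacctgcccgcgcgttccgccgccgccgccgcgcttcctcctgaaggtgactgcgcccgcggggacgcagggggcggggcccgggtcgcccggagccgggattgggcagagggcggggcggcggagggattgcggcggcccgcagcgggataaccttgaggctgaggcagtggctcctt

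The printed window of LDHA held 5 matches to ACGTG, 4 of them within 2 copies of CACGTG, that of PGK1 held 2, and that of PKM held none. LDHA has a second annotated start, at chr11:18396101-18396350 (not printed), whose window held no match to either motif. All 10 members were found in the promoter table, with 23 annotated starts, and 10 of those starts (43.5%) in 7 genes held at least 1 match. Among all 35116 windows of the same length, 18.5% held ACGTG and 6.34% held CACGTG. HK1, ENO1 and PKM had no match in any of their windows. A match of letters is a description and not a binding site, and nothing follows from a window without one.

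Of the 10 enzymes, 6 were lower in T24R2 (HK1, PFKP, ALDOA, PGK1, ENO1 and LDHA), 1 was higher (PKM), and 3 (HK2, GPI and GAPDH) lay below T24 without reaching the fold minimum. A gene was called when edgeR's quasi-likelihood test gave a Benjamini-Hochberg adjusted p under 0.05 over all genes tested and the log2 fold change, T24R2 against T24, passed 0.5 in either direction. By the same rule 26.5% of all genes tested were called lower and 24.9% were called higher, so differences between these lines were common. The adjusted p was under the threshold for 10 of 10 members and for 75.5% of all genes. The libraries of the lines did not overlap for 9 of 10 members and for 61.2% of all genes. The median log2 fold change was -0.54 over the members and 0.01 over all genes. Levels are given as CPM (a gene's count with the library scaled to a total of 1e6) after TMM scaling, which corrects library size for differences in composition, and are listed in the order of replicates 1 to 5.

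**Figure D1:**
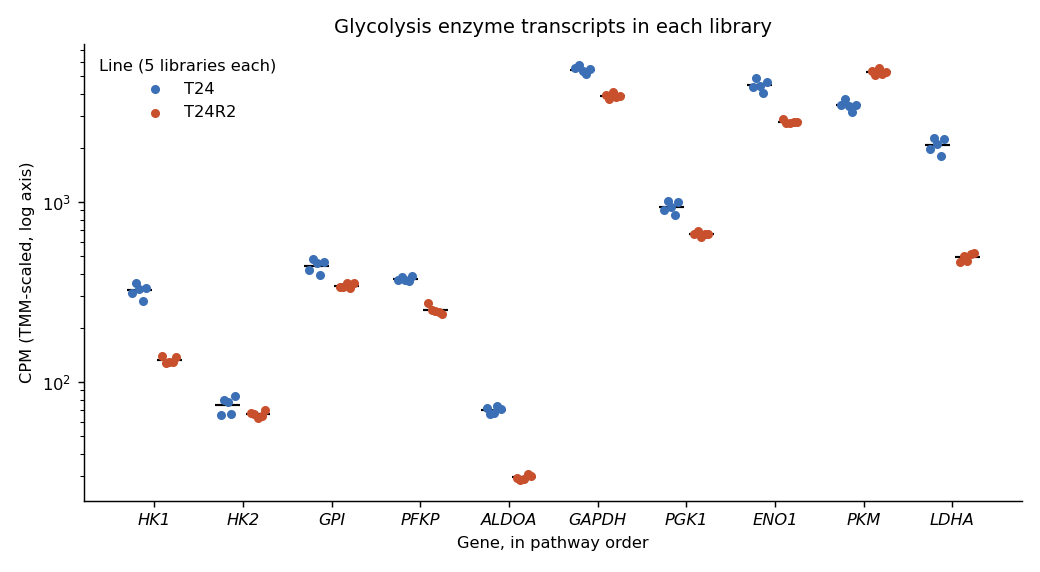
TMM-scaled CPM (log axis) of the 10 enzymes in pathway order, with 1 point for each of the 5 libraries per line and a bar at the mean of each line. PKM alone lies higher in T24R2, HK2 overlaps between the lines, and LDHA shows the widest gap, with T24 at 1812 or more and T24R2 at 520 or less.

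The entry step showed 1 hexokinase that fell and 1 whose lines overlapped. HK1 (ENSG00000156515.24, chr10:69269984-69401884), the broadly expressed hexokinase of the outer mitochondrial membrane, stood at 311, 356, 330, 284 and 336 CPM in T24 and at 139, 128, 130, 130 and 137 CPM in T24R2. Every T24 library lay above every T24R2 library, and the mean of T24R2 was 41.0% of that of T24. The log2 fold change of HK1 was -1.29 (SE 0.05, edgeR adjusted p = 3.7e-24). As in every comparison of bulk RNA here, fewer cells with the transcript and less RNA per cell cannot be told apart.

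HK2 (ENSG00000159399.10, chr2:74834127-74893359), the inducible hexokinase that many tumours raise, was measured at 65.9, 80.0, 77.7, 66.4 and 83.7 CPM in T24 and at 67.1, 66.9, 63.5, 65.3 and 70.5 CPM in T24R2. Replicates 1 and 4 of T24 fell inside the range of T24R2. The log2 fold change was -0.16 (SE 0.06, edgeR adjusted p = 0.017), under the fold minimum, and the exact two-sided permutation test on the CPM gave p = 0.103. With scaling by library size alone the HK2 value was -0.00, and relative to GAPDH counts in the same library it turned to 0.33.

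The pool of HK1 and HK2 transcripts therefore differed in its make-up. Counts were divided by the exon length of each gene before shares were formed, and a share within a library does not depend on the scaling between libraries. HK2 made up 18.4, 19.3, 20.0, 19.9 and 21.0% of the HK1 and HK2 transcripts in T24, and 33.9, 35.8, 34.2, 34.9 and 35.3% in T24R2. The difference of 15.1 points separated all libraries of the lines (exact permutation p = 0.00794, the smallest that 5 against 5 allows, and 0.00926 after adjustment over the 7 shares compared).

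GPI (ENSG00000105220.17, chr19:34359480-34402413), which turns glucose 6-phosphate into fructose 6-phosphate, stood at 422, 483, 460, 396 and 463 CPM in T24 and at 339, 337, 356, 332 and 354 CPM in T24R2. The lines did not overlap, but the log2 fold change of -0.37 (SE 0.05, edgeR adjusted p = 3.1e-09) did not reach the fold minimum. Relative to GAPDH the GPI difference was 0.11 and the libraries overlapped.

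Transcripts of phosphofructokinase and aldolase were lower in T24R2, and on the log2 scale the falls of PFKL and ALDOC were larger than those of the listed PFKP and ALDOA. PFKP (ENSG00000067057.18, chr10:3066333-3137718), the platelet-type subunit of phosphofructokinase, was at 370, 385, 368, 366 and 389 CPM in T24 and at 276, 251.9, 248, 246 and 241 CPM in T24R2. These values did not overlap, and the log2 fold change of PFKP was -0.57 (SE 0.04, edgeR adjusted p = 6.9e-15). With library size alone it was -0.41 and with upper-quartile scaling -0.50, and under both the call was lost. PFKL, the liver-type subunit, fell from 257 ± 6.20 to 127 ± 5.31 CPM (SD, n = 5; log2 fold change -1.02), and PFKM, the muscle type, stood at 65.0 ± 3.69 and 51.9 ± 2.05 CPM (-0.33, not called). The share of PFKP among the subunits was 56.2 ± 0.607% in T24 and 60.4 ± 1.03% in T24R2 (SD, n = 5, exact permutation p = 0.00794).

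ALDOA (ENSG00000149925.22, chr16:30064164-30070457), the main aldolase of most tissues, was at 72.2, 66.5, 67.6, 73.8 and 70.7 CPM in T24 and at 29.5, 28.6, 29.0, 30.9 and 30.0 CPM in T24R2. Every T24R2 library lay below every T24 library. The ALDOA log2 fold change was -1.25 (SE 0.06, edgeR adjusted p = 1.4e-20). Only part of the transcript was measured, since 42.8% of its exon bases also belong to an annotated gene on the same strand that extends over ALDOA (ENSG00000285043), and fragments that touch 2 genes go to neither by the default of the counting program. An opposite-strand gene (ENSG00000274904) covers 13.6% of the exon bases, and with its counts taken off the log2 ratio of the means was -1.03. The sources used here do not settle whether the library kit marked strand, and the value with those counts added was not computed. The level of ALDOA is for these reasons not comparable with those of the other enzymes. ALDOC, the brain-type aldolase, fell from 29.3 ± 3.57 to 2.15 ± 0.625 CPM (log2 fold change -3.77, edgeR adjusted p = 1.8e-24). In T24R2 ALDOC had at most 34 counts per library, and a gene on the opposite strand (ENSG00000265168, 55.0 counts on average against 148 for ALDOC) covers 11.3% of its exon bases. The share of ALDOA among the aldolase transcripts as counted was 62.2 ± 2.55% in T24 and 89.9 ± 2.25% in T24R2 (SD, n = 5, exact permutation p = 0.00794). Since ALDOA was counted over only part of its exons, these percentages do not give the make-up of the aldolase pool.

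GAPDH and PGK1, which form and use the first high-energy intermediate of the pathway, lay on either side of the fold minimum. GAPDH (ENSG00000111640.15, chr12:6534512-6538374) stood at 5554, 5810, 5346, 5138 and 5470 CPM in T24 and at 3968, 3736, 4077, 3823 and 3915 CPM in T24R2. The libraries did not overlap, and the mean of T24R2 was 71.5% of that of T24. The GAPDH log2 fold change was -0.48 (SE 0.04, edgeR adjusted p = 2.4e-14), which missed the fold minimum, and it was -0.51 without replicate 4 of T24, which passed it. GAPDH is often used as a reference gene, and in these libraries it was not level between the lines under TMM (-0.48), library size (-0.32) or upper-quartile scaling (-0.41). An annotated antisense gene lies wholly within its exons (ENSG00000269968, 17.6% of the exon bases) and held 23658 counts on average against 46550 for GAPDH. Whether the library kit marked strand is not settled by the sources used here, so the counts of the 2 genes cannot be told apart. The log2 ratio of the means was -0.52 with the antisense counts taken off, and the value with them added was not computed.

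PGK1 (ENSG00000102144.15, chrX:77910739-78129295), the first ATP-forming kinase of the route, was at 903, 1022, 947, 854 and 998 CPM in T24 and at 663, 690, 644, 670 and 667 CPM in T24R2. The lines were apart in every library. Its log2 fold change of -0.50 (SE 0.04, edgeR adjusted p = 3.2e-13) passed the fold minimum by less than its standard error. The call was lost under library size (-0.34) and upper-quartile scaling (-0.43), with the replicate number as a block (-0.50), and without any 1 of 6 libraries, T24 replicates 2 and 5 and T24R2 replicates 1, 3, 4 and 5 (-0.50 to -0.48).

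TPI1 and PGAM1, whose enzymes stand on the same stretch of the pathway and are not among the 10, were also lower. TPI1, which interconverts the triose phosphates and was named after its values were seen, fell from 908 to 565 CPM (log2 fold change -0.68, edgeR adjusted p = 1.8e-17). PGAM1, the mutase between PGK1 and enolase, fell from 525 ± 53.7 to 150 ± 6.34 CPM (SD, n = 5; log2 fold change -1.81, edgeR adjusted p = 2e-28), and the T24R2 libraries lay between 139 and 154 CPM.

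ENO1 (ENSG00000074800.16, chr1:8861000-8879190, minus strand), the ubiquitous enolase, was at 4372, 4908, 4454, 4047 and 4660 CPM in T24 and at 2904, 2757, 2749, 2805 and 2797 CPM in T24R2. The lowest T24 library stood well above the highest of T24R2. The ENO1 log2 fold change was -0.68 (SE 0.04, edgeR adjusted p = 7.9e-18), and it passed the fold minimum with library size alone (-0.52) but not relative to GAPDH counts (-0.19). ENO2, the neuronal enolase, fell from 115 ± 5.62 to 36.7 ± 0.957 CPM (log2 fold change -1.64, edgeR adjusted p = 2.6e-26).

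The share of ENO1 among the 3 enolases was 79.7 ± 0.455% in T24 and 75.4 ± 0.766% in T24R2 (SD, n = 5, exact permutation p = 0.00794), but its direction rested on ENO3, the muscle enolase. ENO3 shares 111 exon bases with PFN1 on the opposite strand, which held 15807 counts on average against 7707 for ENO3, and without a known strand the 2 cannot be told apart where they overlap. Without ENO3, an alternative chosen after seeing the data, the share of ENO1 was 97.0% in T24 and 98.4% in T24R2, which is 1.45 points higher (exact permutation p = 0.00794).

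The last steps went in opposite directions. PKM (ENSG00000067225.20, chr15:72199029-72231819, minus strand), which encodes the pyruvate kinase isoforms M1 and M2 by alternative splicing, was the only member that rose. It stood at 3469, 3729, 3440, 3173 and 3474 CPM in T24 and at 5345, 5076, 5578, 5140 and 5293 CPM in T24R2. The highest T24 library was below the lowest of T24R2. The PKM log2 fold change was 0.61 (SE 0.04, edgeR adjusted p = 7.3e-17), and counts per gene do not separate the 2 isoforms.

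LDHA (ENSG00000134333.14, chr11:18394560-18408425), the lactate dehydrogenase subunit that favours lactate formation, showed the largest difference of the 10. It was measured at 1968, 2284, 2121, 1812 and 2245 CPM in T24 and at 466, 500, 475, 516 and 520 CPM in T24R2. The mean of T24R2 was 23.7% of that of T24, or 4.21-fold lower, with a log2 fold change of -2.07 (SE 0.05, edgeR adjusted p = 2.6e-31). Across all scalings and with any 1 library left out, the value stayed between -2.13 and -1.59, and it was -2.07 with the counts of annotated LDHA pseudogenes added. LDHB, the other main subunit, was at 35.2 CPM in T24 and 37.7 CPM in T24R2 (log2 fold change 0.10, edgeR adjusted p = 0.32). The share of LDHA was 96.7, 96.6, 97.2, 96.2 and 96.7% in T24 and 84.9, 85.2, 89.8, 87.4 and 86.1% in T24R2, so LDHA remained the larger part in both lines although the lines did not overlap (exact permutation p = 0.00794). LDHB shares 33.4% of its exon bases with another annotated gene on its strand, so part of its fragments were not counted.

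**Figure D2:**
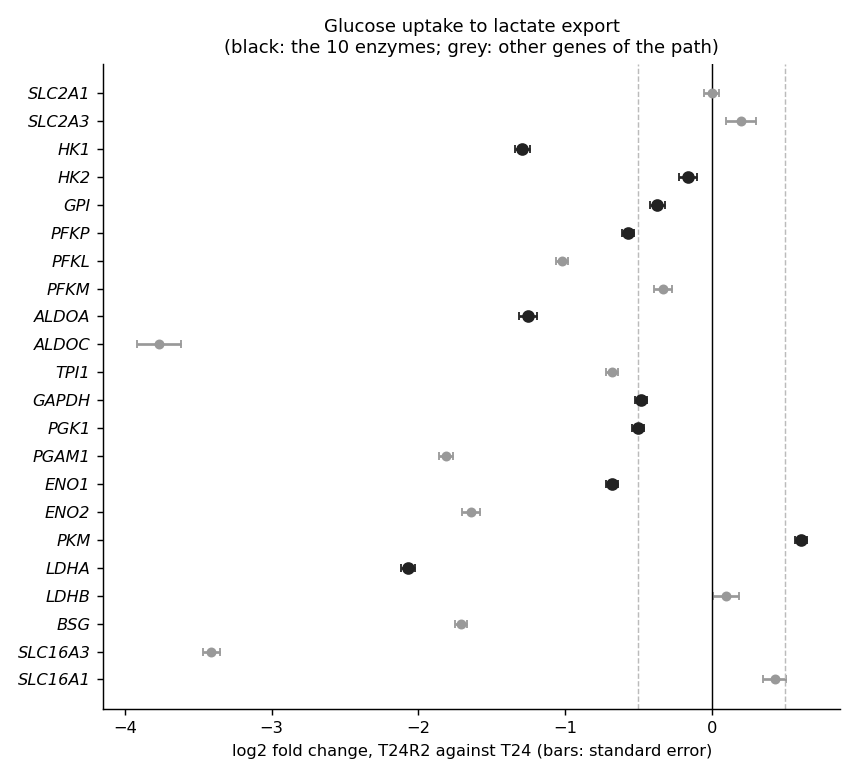
Log2 fold change of T24R2 against T24 with its standard error for genes from glucose uptake to lactate export, the 10 enzymes in black and other genes of the path in grey. Dashed lines mark the fold minimum of 0.5. LDHA lies at -2.07, SLC16A3 at -3.41, SLC2A1 at -0.00 and PKM, on the other side, at 0.61.

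Per kb of exon, which allows levels of different genes to be compared, GAPDH was the most abundant member in both lines. ALDOA, counted over only part of its exons, is left out of the order. GAPDH stood at 2280 ± 104 CPM per kb in T24 and 1629 ± 54.8 in T24R2 (SD, n = 5). The order in T24 was then ENO1 (860), PKM (403), LDHA (345), PGK1 (174), HK1 (51.4), PFKP (48.6), GPI (41.7) and HK2 (12.6), in mean CPM per kb. PKM and LDHA overlapped in T24, as did HK1 and PFKP. In T24R2 the order after GAPDH was PKM (617), ENO1 (537), PGK1 (123), LDHA (82.0), PFKP (32.7), GPI (32.2), HK1 (21.1) and HK2 (11.3), and only PFKP and GPI overlapped. PKM thus stood above ENO1 in T24R2 and below it in T24, and LDHA stood below PGK1 in T24R2 and above it in T24. Exon lengths are those of all annotated exons of a gene together, so a gene with many rarely used exons appears lower on this scale.

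Of the summed level of the members per kb, LDHA held 8.14 ± 0.419% in T24 and 2.65 ± 0.177% in T24R2, and PKM held 9.52 ± 0.0873% and 19.9 ± 0.301% (SD, n = 5), while the partly counted ALDOA held 0.434% and 0.250%. The level of PKM was 1.17 ± 0.0646 times that of LDHA in T24, with libraries from 1.09 to 1.24, and 7.54 ± 0.592 times in T24R2, with libraries from 7.02 to 8.28. This ratio was chosen after its values were seen and was not tested.

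Of the carriers at both ends of the route, the lactate exporter SLC16A3 fell and neither of the glucose transporters SLC2A1 and SLC2A3 passed the test. SLC2A1, the main glucose transporter of tumour cells, was at 164 CPM in T24 and 163 CPM in T24R2 (log2 fold change -0.00, edgeR adjusted p = 0.98), and SLC2A3, a transporter of high affinity, was at 20.9 and 23.9 CPM (0.20, adjusted p = 0.062). SLC16A3, the lactate exporter MCT4, fell from 441 ± 39.8 to 41.6 ± 3.34 CPM (SD, n = 5), 10.6-fold, with a log2 fold change of -3.41 (SE 0.06, edgeR adjusted p = 4e-36). Its libraries lay between 408 and 488 CPM in T24 and between 36.9 and 45.6 CPM in T24R2. CSNK1D overlaps 5.22% of its exon bases from the opposite strand, with 2355 counts on average against 2278 for SLC16A3, and its part in the remaining SLC16A3 counts was not tested. BSG, the chaperone that brings SLC16A1 and SLC16A3 to the membrane, fell from 814 ± 34.7 to 249 ± 8.57 CPM (-1.71, edgeR adjusted p = 7.1e-31), and EMB, a related chaperone, fell from 65.3 to 25.3 CPM (-1.37).

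Both genes of the transport list that were called higher were monocarboxylate carriers of low level, SLC16A7 (3.23 to 8.71 CPM, log2 fold change 1.43) and SLC16A8 (0.274 to 2.64 CPM, 3.18). These 2 genes were named after their values were seen and are not part of the share that follows for SLC16A1 and SLC16A3. SLC16A1, the carrier MCT1 that moves lactate in either direction, was at 26.3 CPM in T24 and 35.4 CPM in T24R2 (log2 fold change 0.43, not called). SLC16A3 made up 91.7, 92.8, 90.5, 92.0 and 92.9% of the transcripts of the 2 carriers in T24 and 46.9, 44.1, 42.3, 42.3 and 47.6% in T24R2. The difference of 47.3 points was the widest of the 7 shares (exact permutation p = 0.00794, adjusted 0.00926). The share of SLC2A1 among SLC2A1 and SLC2A3 was 87.8 ± 1.41% and 86.3 ± 1.28% (SD, n = 5, exact permutation p = 0.111), with overlapping libraries.

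**Figure D3:**
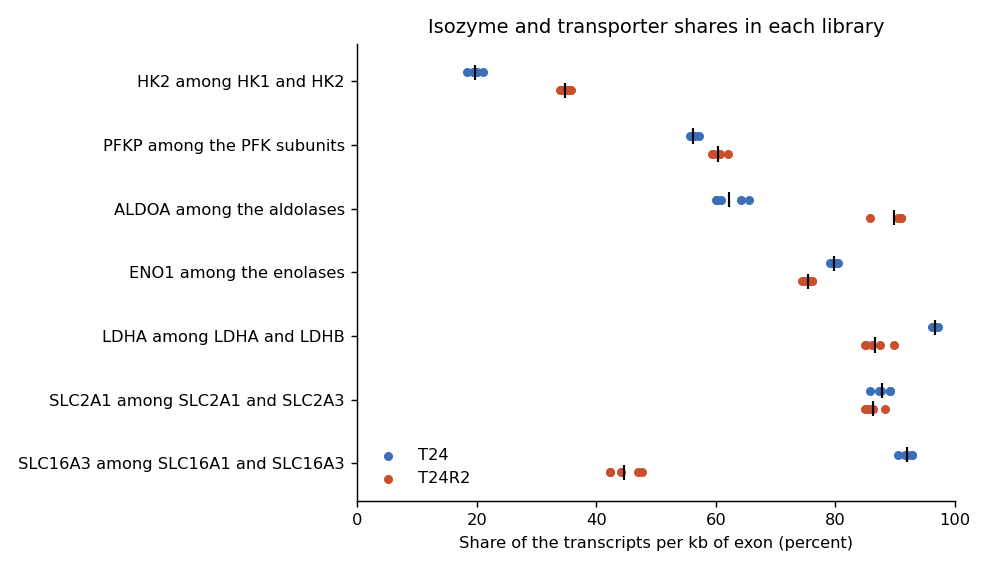
Share of the named gene among the transcripts of its step, in percent per kb of exon, for each library (points) with the mean of each line (bars). The SLC16A3 share lies near 92.0% in T24 and 44.6% in T24R2, the HK2 and ALDOA shares are higher in T24R2, and the SLC2A1 shares overlap. ALDOA was counted over only part of its exons, so its share does not give the make-up of the aldolase pool.

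In 8 lists of neighbouring pathways with 104 genes, 81 were tested, 29 were called lower and 16 higher, with a median log2 fold change of -0.19. The counts of each list are to be read against the 26.5% of all genes called lower and the 24.9% called higher, and several lie near them. Of the other isozymes and steps of glycolysis 13 of 23 were tested, 5 were called lower and 2 higher (median -0.21). ALDOC, PGAM1, ENO2 and PFKL fell furthest among those above 10 CPM. The 2 called higher, named after their values were seen, were HKDC1 (0.212 to 3.36 CPM, log2 fold change 3.89) and GAPDHS (5.76 to 10.3 CPM, 0.83). TMEM147-AS1 covers 62.7% of the exon bases of GAPDHS from the opposite strand. Glucose and lactate transport had 4 genes lower and 2 higher of 13 tested (median -0.00). The genes that set fructose 2,6-bisphosphate, the activator of phosphofructokinase, gave 1 lower and 2 higher of 4 tested (median 0.06), the higher ones being the bifunctional enzyme PFKFB2 and TIGAR, a phosphatase that is not one of those enzymes (log2 fold change 1.32, named after its values were seen). PFKFB3 fell from 59.4 to 39.8 CPM (log2 fold change -0.58) and PFKFB2 rose from 19.3 to 28.0 CPM (0.54, SE 0.09). PFKFB2 passed the fold minimum by less than its standard error. YOD1 covers 3.10% of the exon bases of PFKFB2 from the opposite strand, with 318 counts on average against 241 for PFKFB2. TIGAR was at 2.32 CPM in T24 and 5.81 CPM in T24R2, and 18.1% of its exon bases are shared with a gene on its strand.

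At the branch where pyruvate enters the mitochondrion, 4 of 15 tested genes were higher and 5 lower (median 0.17). MPC1, a subunit of the mitochondrial pyruvate carrier, rose from 7.89 ± 1.33 to 28.7 ± 1.42 CPM (SD, n = 5; log2 fold change 1.86, edgeR adjusted p = 8.8e-19). DLD, the E3 subunit of pyruvate dehydrogenase, rose (0.79), DLAT, the E2 subunit, fell (-0.93), and PDK3, a kinase that switches the complex off, fell from 40.4 to 16.2 CPM (-1.31). Of the other kinases of the complex, named after their values were seen, PDK2 rose from 25.6 to 39.4 CPM (0.62), PDK4 fell from 2.05 to 0.613 CPM (-1.70) and PDK1 was at 32.8 and 32.5 CPM (-0.01, adjusted p = 0.93). DLD overlaps LAMB1, DLAT overlaps PIH1D2 and PDK2 overlaps SAMD14 on the opposite strand, from which they cannot be told apart there.

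Of the genes of glycogen and hexose phosphates 7 of 13 tested were lower and 1 higher (median -0.69). PYGB and PYGL, the brain-type and liver-type glycogen phosphorylases that feed glucose phosphate into glycolysis, fell from 553 to 280 CPM (log2 fold change -0.98) and from 186 to 97.6 CPM (-0.93). GYG1, the primer of glycogen synthesis, fell (-1.16), as did PGM2L1, which makes glucose 1,6-bisphosphate (-2.04). HLTF covers 21.8% of the exon bases of GYG1 from the opposite strand, with 878 counts on average against 507 for GYG1, and its part in the GYG1 value was not tested.

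In gluconeogenesis only 2 of 7 genes were tested, and PCK2, the mitochondrial phosphoenolpyruvate carboxykinase, rose from 41.1 to 81.0 CPM (log2 fold change 0.98, edgeR adjusted p = 6e-18). Of the shuttles that carry cytosolic NADH into the mitochondrion 3 of 9 tested genes were higher and 2 lower (median -0.02). The aspartate-glutamate carriers SLC25A12 and SLC25A13 rose (0.98 and 1.28 on the log2 scale), GPD1L rose (0.91) and GPD2 fell (-0.72).

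Among regulators that respond to glucose or oxygen, 5 of 12 tested were lower and 1 higher (median -0.46). TXNIP and ARRDC4, arrestins whose genes are induced by glucose through MLX and its partners, fell from 299 to 164 CPM (log2 fold change -0.87) and from 12.5 to 6.29 CPM (-0.99). MLX itself fell (-0.55), with 18.2% of its exon bases shared with PSMC3IP on the opposite strand (268 counts on average against 544 for MLX). HIF1AN, which hydroxylates HIF-1 alpha and limits its activity, fell from 142 to 89.3 CPM (-0.67). The next genes were named after their values were seen. HIF1A was at 310 and 231 CPM (-0.42), EPAS1 at 102 and 75.2 CPM (-0.44) and ARNT at 41.7 and 43.6 CPM (0.06), none of them called. EGLN1, at 16.7 and 23.55 CPM, was called higher (0.5, SE 0.1) and EGLN3, at 3.07 and 1.59 CPM, lower (-0.95). The EGLN1 value passed the fold minimum by less than its standard error. EGLN1 shares 55.8% of its exon bases with another annotated gene on its strand, so part of its fragments were not counted. The part of these regulators in the differences of the enzymes was not tested.

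Within T24 the members tended to move together from library to library. T24 replicate 2 was the highest of its line for 7 of 10 members and replicate 4 the lowest for 8 of 10, with mean deviations of 0.09 and -0.12 on the log2 scale. In T24R2 no library was the highest for more than 3 members or the lowest for more than 4. Over the 10 libraries, as deviations from the mean of each line, 36 of 45 pairs of members correlated positively (median Pearson r 0.57, range -0.75 to 0.97). ENO1 (0.97) and HK1 (0.96) followed the mean of the members most closely while ALDOA ran against it (-0.61). That mean includes the gene itself, which raises the r of a member, so these values cannot be set against those of other genes. These correlations share libraries and scaling and are descriptions. Of 6521 other genes whose mean level reached 32 CPM, those most like the mean of the members over the 10 libraries were MCM5 (r 0.959), CSF3 (0.958), TUBB (0.955), HNRNPM (0.947) and IRAK1 (0.945).

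**Figure D4:**
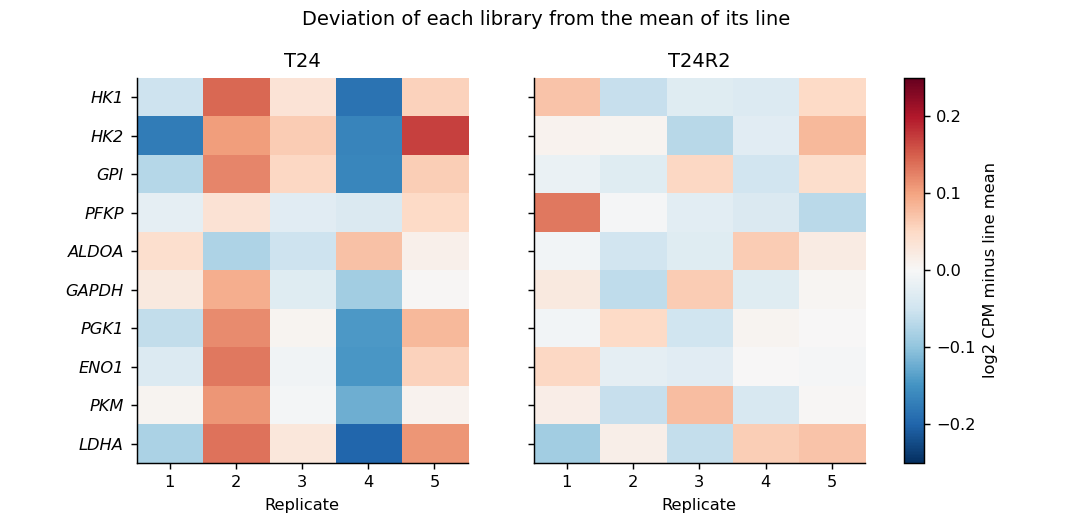
Deviation of each library from the mean of its line, as log2 CPM, for the 10 enzymes (rows) and replicates 1 to 5 (columns) of T24 and T24R2. Replicate 4 of T24 is below the mean of its line for most enzymes and replicate 2 above it, while ALDOA shows the opposite signs.

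The libraries held 9257843 to 10247941 counts in T24 and 9591379 to 10840954 in T24R2, and counts per member ranged from 302 (ALDOA) to 58558 (PKM). Without TMM the log2 fold changes had a median of 0.18 over all genes, against 0.01 with it, and the calls over all genes were 5203 higher and 3437 lower, against 4027 and 4282. With library size alone 4 members were called lower and 1 higher. Of 17 bladder epithelial markers 9 were tested and all 9 fell, with a summed level of 5011 to 5745 CPM in T24 and 3029 to 3233 CPM in T24R2. KRT7, KRT8 and KRT18 stayed abundant, KRT19 fell from 267 to 0.0887 CPM, and KRT20 was at 0 in every library. Of 13 markers of blood, endothelium and fibroblasts 4 were tested and fell, with sums of 236 to 287 CPM in T24 and 2.41 to 6.24 CPM in T24R2, mostly CDH5 (239 to 0.559 CPM). PTPRC, CD3E, HBB and DCN were under 1 CPM throughout. Their part in the differences of the enzymes was not tested.

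**Figure D5:**
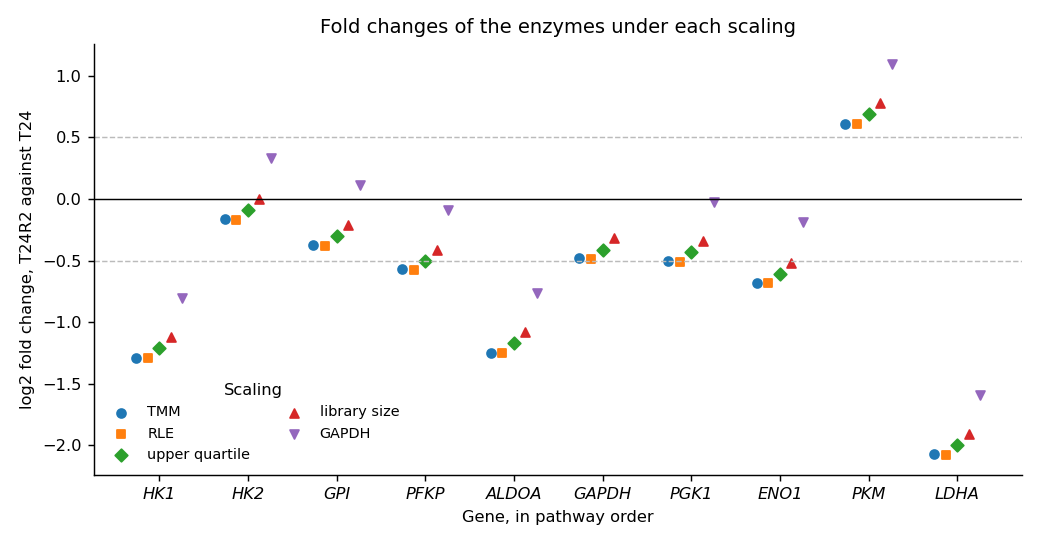
Log2 fold change of T24R2 against T24 for each enzyme under 4 scalings and relative to the GAPDH count of the same library, which gives no point for GAPDH. LDHA, HK1 and ALDOA stay below -0.5 and PKM above 0.5 throughout, while HK2 and GPI change sign when set relative to GAPDH.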

How the data were processed

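RNA-seq of 5 T24 and 5 T24R2 libraries was analysed from the gene counts deposited by the authors. Per the study's methods, reads were aligned to hg38 with STAR 2.7.0, uniquely mapped reads without duplicates were kept with SAMtools 1.10, and counts were assigned with featureCounts to the genes of GENCODE release 39. The file headers give featureCounts 2.0.1 with strand option 1. These deposited values are raw counts without normalization. Removal of duplicates lowers the counts of the most abundant short genes, and unique mapping lowers those of genes with near-identical copies.

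Genes were filtered with filterByExpr, scaled by TMM and tested with edgeR 4.0.16 (quasi-likelihood, no covariate, Benjamini-Hochberg adjustment over all genes tested) in R 4.3.3. A call needed an adjusted p under 0.05 and a log2 fold change beyond 0.5 in size, the study's thresholds. Shares and single levels were compared by exact two-sided permutation tests over libraries (SciPy 1.17.1), which cannot go below p = 0.00794. The study used DESeq2 with shrinkage, and DESeq2 1.42.0 and limma 3.58.1 (voom) were alternatives, beside other scalings, filters, fold minimums, a replicate block and the omission of each library.

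The 10 members and the gene lists were chosen with earlier results of these data known. Named beside the members were, per list, up to 4 called genes reaching a mean level of 10 CPM in either line, by size of fold change, the genes of the shares, and the 5 genes most like the mean of the members. Relative levels per GAPDH count and the enolase share without ENO3 were added after seeing the data. Replicates of a line differed by more than counting error (over 20 pairs, chi-square was 1.99 to 6.51 times its degrees of freedom). Precision is set by the spread between libraries, and intervals from counts alone were not used.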

Additional observations from a re-analysis of the deposited data

Results flagged for a closer look

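The share of the partly counted ALDOA among the aldolase transcripts in T24R2 replicate 3 was 85.8%, against 90.6 to 91.0% in the other 4 libraries of that line, a gap larger than Dixon's 95% limit for 5 values. Of 36 groups of 5 checked in this way 1 stood out, and chance alone gives about 1.8. The level of ALDOA itself in that library was 29.0 CPM, within the range of its line (28.6 to 30.9 CPM), while ALDOC, which holds most of the remainder of that share, was at 3.26 CPM there, from 34 counts. All T24 libraries had shares of 65.5% or less.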

How the results depend on the processing

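Of 431 recomputed values for 24 results, 399 were classed as unchanged, a class with a wide margin for counts. With library size alone it still held 4 members called lower against 6, and 5203 genes called higher against 4027. It also held HK2 at -0.00 (edgeR adjusted p = 0.99) against -0.16 (0.017), since HK2 was not called in either case. For genes called over the whole table, requiring a mean of at least 100 counts gave 2350 higher and 2641 lower. With a fold minimum of 1 there were 1918 higher and 2293 lower, and no fold minimum gave 6128 higher. By construction these settings tested fewer genes, called a narrower range and called a wider range, in that order. A fold minimum of 1 left 0 members higher and 3 lower (HK1, ALDOA and LDHA), and 7 list genes higher and 12 lower. Relative to GAPDH counts, HK2 (0.33) and GPI (0.11) reversed and PFKP (-0.09), PGK1 (-0.02) and ENO1 (-0.19) fell short of the fold minimum; these values carry the difference of GAPDH itself. Without ENO3 the enolase share reversed to 1.45 points. Leaving out 1 library at a time gave 5 to 7 members lower and 1 higher, and a SLC2A1 share difference of -2.05 to -1.19 points, with an exact permutation p of 0.0476 without replicate 1 of T24 or of T24R2, against 0.111 with all libraries; the cause was not tested. PGK1 crossed the fold minimum more often than any other member, also with voom (-0.50) and the mean of at least 100 counts (-0.47). ALDOA and HK2 rest on the fewest reads, with 302 to 696 and 617 to 775 counts per library.

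Libraries with the same replicate number deviated together weakly or not at all (r 0.13, -0.0014, 0.098, 0.041 and 0.037 over 6531 genes). Of 5 T24 libraries 2 correlated best with their own number. These values cannot decide whether the numbers pair libraries, and the main fit did not pair them. With the replicate number as a block 3979 genes were called higher and 4261 lower, and 6 of the 7 member calls were shared, PGK1 being lost.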
